A study of Mus musculus with 18 samples.

Results

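Shared H3K27ac regions at gene starts are stretches of chromatin around the beginning of protein-coding genes that carried an acetylation peak in all 3 genotypes studied. They were chosen by the H3K27ac peak lists themselves. Peaks of the WT, mdx and mdxTLR4-/- lists that overlapped by at least 1 bp on chromosomes 1 to 19 were merged, regions with 200 or more WT reads per kb of WT peak were dropped, and a region was kept when all 3 lists touched it and a gene start lay within 2 kb. This gave 3475 regions among 21518 merged regions and among 6376 regions touched by all 3 lists, the other 2901 lying away from starts. Of the 20807 protein-coding genes of these chromosomes in the GENCODE vM21 annotation, 4188 had their start inside a region or within 2 kb. The share was 20.1% (Wilson 95% interval 19.6% to 20.7%). Both kinds are counted below as starts in a shared start region. Because the H3K27ac reads decided membership, the presence of a peak in each list is a description and was not tested.

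The cells were bone marrow-derived macrophages (BMDM), grown from marrow of male mice and left without further treatment. For H3K27ac, WT mice (strain label C57BL6) gave 2 libraries, mdx mice (strain label Dmdmdx-4Cv, a mutation of the dystrophin gene Dmd) gave 2, mdx mice that also lacked TLR4 (mdxTLR4-/-, strain label Bl6/Bl10) gave 1, and there was 1 input library. By the labels the mice were 19 and 20 weeks old for WT, 21 and 22 weeks for mdx and 23 weeks for mdxTLR4-/-, and for the H3K27me3 libraries used later 12 and 13, 14 and 15, and 16 and 17 weeks. These labels rise by 1 week from sample to sample through the whole series, inputs included, so it is doubtful that they are true ages. As labelled, age, strain and genotype cannot be told apart. Replicates had been merged before peaks were called. Each genotype is therefore 1 list, no spread between mice is known, no p-value is given, and all intervals cover counting error or the spread over regions only. Values given as 3 numbers follow the order WT, mdx, mdxTLR4-/- throughout.

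H3K27ac is acetylation of lysine 27 of histone H3, set by the acetyltransferases p300 and CBP and removed by histone deacetylases. It marks promoters and enhancers in use, whereas trimethylation of the same lysine (H3K27me3) by Polycomb repressive complex PRC2 marks silenced genes, and a single histone tail cannot carry both marks. In macrophages the ETS-family factor PU.1, together with C/EBP, IRF, RUNX and MAF factors, maintains the regulatory regions of the lineage.

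The sequences under such regions differ widely, and 6 promoters are shown for the extremes the results turn on. Each is 300 bases long, 250 before the RefSeq start and 50 from it on, in the GRCm38.p6 build, and capitals mark every match on either strand to the 11 motifs spelled out with the sequence results. Zeb2, a zinc finger factor needed for macrophage identity, had the longest region of the macrophage transcription factors (chr2:45117393-45117692, minus strand). Rps9, of the small ribosomal subunit, had the most WT reads of the ribosomal protein genes (chr7:3703791-3704090, plus strand). C1qc, a chain of complement C1q, lay in the region with the most WT reads among those also touched by H3K27me3 in all 3 lists (chr4:136892865-136893164, minus strand). Stil, a centriole assembly gene, had the lowest called density ratio of mdx to WT (chr4:114999868-115000167, plus strand), and Vac14, a scaffold of the lipid kinase PIKfyve, the highest (chr8:110618317-110618616, plus strand). Nr1h2, the oxysterol sensor liver X receptor beta, was chosen after the values were seen, for the most ETS cores (chr7:44553916-44554215, minus strand). RefSeq promoters matched 3311 of the 4182 gene symbols in these regions.
Zeb2: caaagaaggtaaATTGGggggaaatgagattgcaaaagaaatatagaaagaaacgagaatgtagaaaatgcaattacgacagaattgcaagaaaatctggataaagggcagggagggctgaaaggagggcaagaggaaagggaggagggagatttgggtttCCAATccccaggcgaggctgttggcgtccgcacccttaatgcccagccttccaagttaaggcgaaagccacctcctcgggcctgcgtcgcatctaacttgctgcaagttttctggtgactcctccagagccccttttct
Rps9: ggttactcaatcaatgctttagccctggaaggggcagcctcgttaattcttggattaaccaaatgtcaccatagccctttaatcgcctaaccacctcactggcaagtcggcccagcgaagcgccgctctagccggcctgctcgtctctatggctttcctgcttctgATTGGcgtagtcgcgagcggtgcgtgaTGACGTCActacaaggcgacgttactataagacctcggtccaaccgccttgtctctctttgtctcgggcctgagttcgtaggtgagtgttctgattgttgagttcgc
C1qc: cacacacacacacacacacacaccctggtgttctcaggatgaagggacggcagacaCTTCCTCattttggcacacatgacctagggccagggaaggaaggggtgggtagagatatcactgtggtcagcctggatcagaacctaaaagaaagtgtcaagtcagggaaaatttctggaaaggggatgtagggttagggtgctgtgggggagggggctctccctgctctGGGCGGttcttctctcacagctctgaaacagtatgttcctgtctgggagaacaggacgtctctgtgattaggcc
Stil: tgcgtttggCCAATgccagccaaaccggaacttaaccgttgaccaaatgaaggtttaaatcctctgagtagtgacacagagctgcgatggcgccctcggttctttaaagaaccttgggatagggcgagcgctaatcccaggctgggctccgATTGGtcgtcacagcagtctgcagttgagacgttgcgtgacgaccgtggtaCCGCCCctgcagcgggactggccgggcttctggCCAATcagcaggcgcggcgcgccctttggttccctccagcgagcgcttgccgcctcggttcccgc
Vac14: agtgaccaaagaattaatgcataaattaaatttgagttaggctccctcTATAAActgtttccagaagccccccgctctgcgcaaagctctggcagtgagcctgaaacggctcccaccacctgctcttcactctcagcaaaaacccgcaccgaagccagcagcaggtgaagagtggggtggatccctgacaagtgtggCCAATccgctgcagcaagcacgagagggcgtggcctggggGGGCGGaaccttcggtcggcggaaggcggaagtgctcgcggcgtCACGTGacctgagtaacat
Nr1h2: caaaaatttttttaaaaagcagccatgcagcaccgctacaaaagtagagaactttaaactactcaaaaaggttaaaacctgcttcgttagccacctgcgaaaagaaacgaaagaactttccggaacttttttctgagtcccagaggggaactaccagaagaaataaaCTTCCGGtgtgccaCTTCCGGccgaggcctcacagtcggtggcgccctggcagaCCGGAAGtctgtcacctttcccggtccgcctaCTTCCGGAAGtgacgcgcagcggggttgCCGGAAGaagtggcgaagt

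The Nr1h2 promoter held 6 ETS cores, 2 of them overlapping on opposite strands, and no other motif searched. Its region carried 29, 7 and 11 reads. The Rps9 promoter held 1 CRE and 1 CCAAT box, that of Zeb2 held 2 CCAAT boxes, and that of Stil held 3 CCAAT boxes and 1 GC box. The C1qc promoter held 1 PU.1 core and 1 GC box in a stretch with only 3 CpG dinucleotides, against 26 in Stil, 21 in Rps9 and 19 in Nr1h2. The Vac14 promoter held 1 match each to the CCAAT box, E box, GC box and TATA box.

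The read counts behind the regions were small. Medians over the regions were 21, 16 and 14 reads, and the counts ran from 6 to 292, from 5 to 266 and from 5 to 225. Per kb of peak the medians were 9.44 (order-statistic 95% interval over regions 9.21 to 9.64), 8.33 (8.13 to 8.50) and 8.00 (7.92 to 8.33). WT was thus the densest list before any scaling. Peak lengths were all multiples of 200 bp, with medians of 2400, 2000 and 1800 bp, and the merged regions had a median of 3000 bp and ran from 400 to 19000 bp. All peaks of the 3 lists held 266063, 186508 and 165505 reads. These are sums over called peaks, and the sequencing depth of the libraries is unknown.

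At the edges of the rule, the densest WT region kept, at Phf21a, had 95 reads per kb (19 reads in a 200 bp peak), the next had 48.4, and the 7 regions dropped began at 235. The 43 shared regions within the last 500 bp inside the distance limit had a median of 18 WT reads, and the 50 within the next 500 bp outside it had 22.5. Few regions lay near this edge, since a start lay inside the region in 93.8% of cases.

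Peaks over or near the start were largely fixed by the rule, which kept only regions within 2 kb of a start. Within that limit the acetylated stretch reached farther into the gene than upstream. The start was under a peak in 87.5% (Wilson 95% interval 86.3% to 88.5%), 85.8% (84.6% to 86.9%) and 81.8% (80.5% to 83.1%) of regions, and under a peak of all 3 lists in 72.3%. Of all protein-coding starts, 24.7%, 21.2% and 21.7% lay under a peak of the list. In each list the share under a peak was highest 200 bp downstream of the leading start, which is the start nearest the centre of the region. That choice of start also largely fixes a maximum near it. At 1000 bp upstream it was 42.1%, 36.6% and 31.2%. At 1000 bp downstream it was 64.5%, 58.1% and 53.5%, so the downstream share was the larger in every list. Among 2566 regions with a single start, and with that start inside, the region reached a median of 1747 bp downstream (1707 to 1801) and 1196 bp upstream (1160 to 1226).

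**Figure D1:**
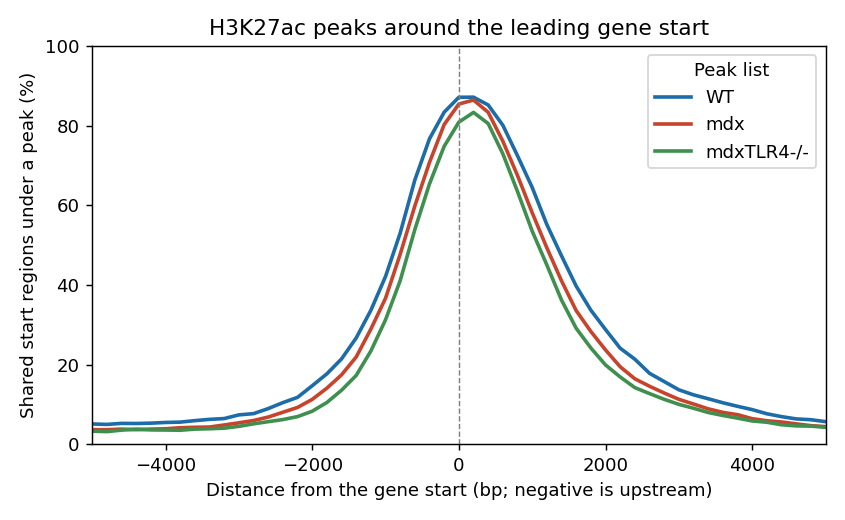
Share of the 3475 shared start regions under an H3K27ac peak (y axis, percent) at each distance from the leading gene start (x axis, bp, negative upstream), with 1 line per peak list. All 3 lines are highest at 200 bp downstream, and at 1000 bp the WT share is 42.1% upstream and 64.5% downstream. A maximum near the start is largely fixed by how the regions and the leading start were chosen.

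Neighbouring genes often shared a region. There were 2770 regions with 1 start, 660 with 2, 41 with 3 and 4 with more. A divergent pair, meaning genes that start within 1 kb of each other and run apart, was present in 308 regions. Genes of such pairs made up 14.9% of the genes in shared start regions (13.9% to 16.0%) and 4.96% of the genes outside them (4.64% to 5.30%). In 305 regions with the divergent start inside, the region reached farther downstream of the leading start in 83.3%. This share is largely fixed by taking the start nearest the centre, since its partner lies upstream of it.

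Regions with many reads included those of lysosomal and regulatory genes. Zeb2 carried 272, 216 and 169 reads over 14800 bp. Ctsb, which encodes the lysosomal protease cathepsin B, carried 268, 215 and 174. In both genes the WT count was the highest. Psap, the precursor of the saposins that help to degrade sphingolipids, was highest in mdx BMDM, with 244, 266 and 225 reads. Irf2bp2, a corepressor that binds IRF2, carried 237, 204 and 162.

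The longest region covered Mcl1, an anti-apoptotic relative of BCL2, with 19000 bp at chr3:95657201-95676200 and 184, 148 and 131 reads. The next, of 18200 bp, took in C1qa, C1qb and C1qc, with 213, 180 and 132 reads. The third covered Ctsd (cathepsin D), with 17000 bp and 138, 126 and 81 reads. Long regions were not denser than the rest. The 363 regions of at least 5400 bp had a median WT density of 9.31 reads per kb (8.89 to 10.0), against 9.44 (9.23 to 9.72) in the other 3112. Their leading start was CpG-rich in 56.2% (51.1% to 61.2%), against 67.8% (66.1% to 69.4%) in the others. Of 16 macrophage transcription factor genes in shared start regions 8 were in such a long region, and of 41 ribosomal protein genes 2 were.

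The lack of TLR4 in mdxTLR4-/- BMDM was looked at first, as a check of the labels. The region at the Tlr4 start (chr4:66826601-66829400) carried 44, 29 and 28 reads over peaks of 2800, 2000 and 1600 bp. A peak was therefore present at the start in the knockout list too. Which part of the gene the allele removes is not given in the sources used here, so a peak at the start checks nothing. At exon 3, which spans chr4:66839229-66842800, a WT peak of 8 reads overlapped the exon, mdx had none, and the nearest mdxTLR4-/- peak, of 5 reads, began at 66843001, beyond its end. With mdx BMDM also lacking a peak there, these peaks do not tell whether the label holds.

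For the comparison of genotypes, reads per kb of peak were divided between lists and the ratio was centred, that is, divided by its median over all 6376 shared regions (0.857 for mdx to WT, 0.840 for mdxTLR4-/- to WT and 0.967 for mdxTLR4-/- to mdx). Over the regions at starts the median centred ratio was 1.03 for mdx to WT (1.01 to 1.05), 1.02 for mdxTLR4-/- to WT (1.00 to 1.04) and 0.993 for mdxTLR4-/- to mdx (0.969 to 1.02). For shared regions away from starts the same medians were 0.972 (0.957 to 0.998), 0.974 (0.952 to 0.992) and 1.01 (0.987 to 1.03). The 2 sets together make up the regions used for centring, so that medians near 1 are largely fixed by it.

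A region was called lower or higher when its centred ratio was at least 1.5-fold from 1 and the exact 95% interval of the ratio, from the read counts, lay beyond 1. For mdx to WT, 237 regions were called lower (6.82%), beside 7.58% of all shared regions, and 261 higher (7.51%), beside 7.12%. For mdxTLR4-/- to WT, 224 were lower (6.45%), beside 7.06%, and 216 higher (6.22%), beside 6.2%. For mdxTLR4-/- to mdx, 216 were lower (6.22%), beside 5.83%, and 206 higher (5.93%), beside 5.82%. The shares at starts were near the background in each case. The split between lower and higher turned on the scaling, since without centring mdx to WT gave 417 lower and 149 higher, and with lists scaled to their reads in peaks 86 and 557 (mdxTLR4-/- to WT gave 455 and 104, and 53 and 647). Since peak length enters the density, a longer peak with the same reads is called lower. In mdx to WT, 202 of the 237 lower regions had the longer peak in mdx and 245 of the 261 higher ones the shorter peak, and only 33 and 32 were also called by reads per region (34 and 46 for mdxTLR4-/- to WT, 30 and 40 for mdxTLR4-/- to mdx).

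**Figure D2:**
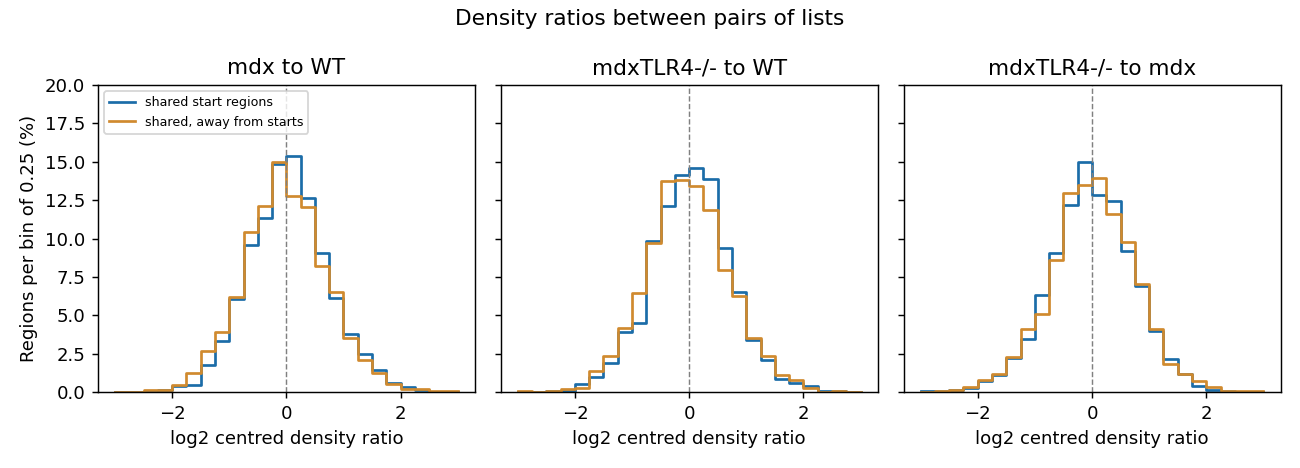
Distribution of the centred density ratio (x axis, log2 scale, y axis, percent of regions) for each of the 3 pairs of lists, in shared start regions and in shared regions away from starts. The curves lie over each other around 0, with medians on the linear scale of 1.03 and 0.972 for mdx to WT.

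The largest changes show the part played by length. At Stil, mdx had 10 reads over 2400 bp and WT 22 reads over 800 bp, giving a ratio of 0.177 (0.0747 to 0.389), while mdxTLR4-/- had 22 reads over 2000 bp. At Vac14 the reads were 7, 7 and 8, and the mdx peak was 400 bp long against 2600 bp in WT, giving a ratio of 7.58 (2.27 to 25.3). Neither was called by reads per region. Dnajc5, a synaptic and secretory chaperone gene, fell to 0.206 (0.104 to 0.390) with 33, 15 and 19 reads.

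Regions called in the same direction per kb and per region, chosen after the values were seen, were less dependent on length. Hnrnpu, a nuclear RNA-binding protein gene, had 46, 15 and 27 reads and fell in mdx to 0.358 of WT (0.186 to 0.653). Pik3ca, the catalytic p110 alpha subunit of PI3-kinase, had 48, 12 and 19 reads and fell to 0.365 (0.176 to 0.697). Dennd1a, an endocytic regulator gene, had 25, 7 and 21 reads over peaks of 1400 bp in each list, and fell to 0.327 (0.119 to 0.777). In these 3 regions mdx was the lowest list. Tmem184b, a membrane protein gene, had 17, 32 and 8 reads and rose in mdx to 3.66 (1.97 to 7.03). Psma3, a proteasome core subunit gene, had 44, 63 and 56 reads and rose to 1.54 (1.03 to 2.32).

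Gene lists put names to the regions. The lists were drawn up with results of these data known, so their counts are descriptions. Beside 20.1% of all protein-coding genes, the start lay in a shared start region for 16 of 24 macrophage transcription factors (66.7%), 13 of 18 macrophage markers (72.2%), 11 of 14 NF-kappaB genes (78.6%), 15 of 22 AP-1 and early response factors (68.2%) and 18 of 24 interferon-stimulated genes (75%). It did so for 4 of 22 inflammatory mediators (18.2%) and 4 of 13 alternative activation genes (30.8%). Among housekeeping lists the counts were 41 of 75 ribosomal protein genes (54.7%), 22 of 34 proteasome subunit genes (64.7%), 23 of 37 lysosome genes (62.2%) and 20 of 50 genes of complex I and ATP synthase (40%). Cell cycle genes had 14 of 42 (33.3%).

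**Figure D3:**
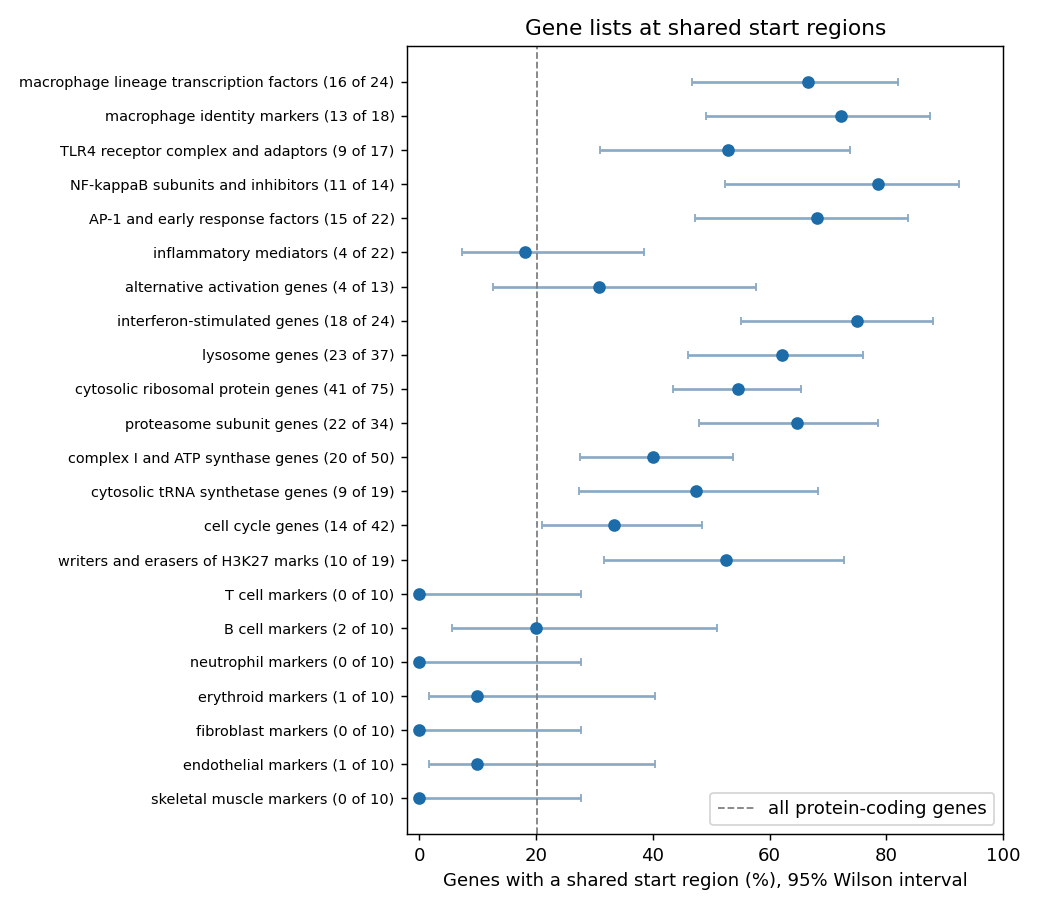
Share of the genes of each list with a shared start region (x axis, percent, with Wilson 95% intervals as bars), 1 list per line on the y axis. Inflammatory mediators lie near the 20.1% of all protein-coding genes at 18.2%, and macrophage markers lie at 72.2%.

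The macrophage label was checked on its markers and on those of other cells. Of 10 markers each, T cells, neutrophils, fibroblasts and skeletal muscle had 0 in a shared start region. B cells had 2 (Vpreb1 and Ms4a1), erythroid cells 1 (Tal1) and endothelial cells 1 (Pecam1). The WT list had no peak within 2 kb of the Ms4a1 start, and that region was counted through the peaks of the other lists. The Vpreb1 region also held the start of Top3b and the Pecam1 region that of Milr1, so the gene behind the reads cannot be told apart. Among macrophage genes, Csf1r, the receptor for the growth factor of these cultures, was not included. No region within 2 kb of its start was touched by all 3 lists. The mdx list had no peak within 2 kb of that start, whereas the other lists did.

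Of the transcription factors, Spi1, which encodes PU.1, carried 108, 96 and 95 reads at chr2:91081201-91089200. Its centred ratio of mdx to WT was 1.48 (1.11 to 1.97), just under the 1.5-fold limit and so not called. Klf6, a Kruppel-like factor, carried 225, 167 and 154 reads, and Maf, a factor of mature macrophages, 96, 76 and 71. For Klf6 and Maf the intervals of all 3 ratios held 1. Irf8, of the monocyte lineage, carried 24, 7 and 8 reads, and Cebpa (C/EBP alpha) 16, 9 and 16. Neither was called per kb, although Irf8, with peaks of 5200, 1200 and 1000 bp, was lower in mdx by reads per region. In mdx BMDM no peak lay within 2 kb of the Irf8 start, whereas the other lists had one. Over the list, 2 of 16 were called lower in mdx to WT, beside 7.58% of all shared regions. The same 2 genes were higher in mdxTLR4-/- to mdx, beside 5.82%, a pair of comparisons that share the mdx list. These were Fli1 and Etv6, both ETS factors. With lists scaled to their reads in peaks, mdx to WT gave 0 lower and 1 higher, beside 86 lower and 557 higher of all 3475 regions at starts. Fli1 had 31 reads in each list, and its mdx peak was 4200 bp long against 1800 bp in WT, giving 0.500 (0.294 to 0.850). Etv6 had 62, 54 and 52 reads over 4200, 7200 and 3000 bp, giving 0.593 (0.404 to 0.868).

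**Figure D4:**
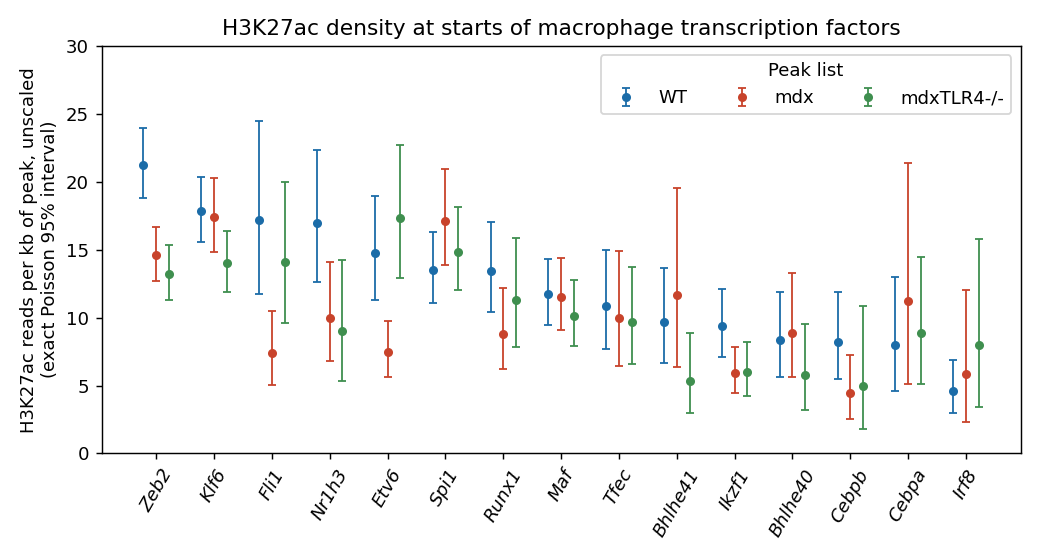
H3K27ac reads per kb of peak (y axis, unscaled, with exact Poisson 95% intervals as bars that cover counting error only) at 15 of the 16 macrophage transcription factor genes in shared start regions (x axis), with 1 point per peak list. For Fli1 the values are 17.2, 7.38 and 14.1, in the order WT, mdx, mdxTLR4-/-, from 31 reads each.

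Of 13 macrophage markers, none was called higher than WT, 2 were lower in mdx and 5 in mdxTLR4-/- BMDM, and the median centred ratios were 0.770 and 0.714, beside 1.03 and 1.02 over all regions at starts. The shares called lower over all shared regions were 7.58% and 7.06%. Other lists had similar medians for mdx to WT, at 0.723 for NF-kappaB genes, 0.774 for tRNA synthetase genes and 0.780 for interferon-stimulated genes. With lists scaled to their reads in peaks, the marker medians were 0.942 and 0.965 beside 1.25 and 1.38 over all regions at starts, and the calls became 0 lower and 2 higher in mdx and 3 lower and 2 higher in mdxTLR4-/- BMDM. By reads per region the medians were 0.953 and 0.806 beside 1.02 and 1.04, and 2 were lower and 1 higher in both. Of all 3475 regions at starts, the scaling called 86 lower and 557 higher in mdx, and 53 and 647 in mdxTLR4-/- BMDM. Reads per region called 122 and 163, and 131 and 183. Tyrobp, the signalling adaptor DAP12, carried 40, 18 and 12 reads, and fell to 0.477 of WT (0.258 to 0.852) with mdx and to 0.325 (0.155 to 0.631) with mdxTLR4-/-. The latter call, alone among these 7, was also made by reads per region. Trem2, a lipid receptor that signals through DAP12, carried 49, 23 and 23 reads and fell to 0.404 (0.235 to 0.675) in mdxTLR4-/- BMDM. Cd14, the lipopolysaccharide co-receptor, carried 67, 38 and 36 and fell to 0.584 (0.381 to 0.882) and 0.436 (0.282 to 0.663). Cd68 and Gpnmb, both lysosomal membrane proteins, were the other two lower in mdxTLR4-/- BMDM, at 0.573 (0.340 to 0.938) and 0.659 (0.442 to 0.969). Lyz2 (lysozyme) had its highest count in mdx BMDM, with 108, 132 and 85 reads.

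In the TLR4 receptor complex and its adaptors, 9 of 17 genes had a shared start region. Ly96, which encodes the co-receptor MD-2, carried 59, 51 and 43 reads and was not called in any pair. Irak4, the kinase recruited by MyD88, carried 30, 20 and 14 and fell to 0.444 (0.218 to 0.864) in mdxTLR4-/- relative to WT, in a region that also held the start of Pus7l. This call was not made by reads per region. The adaptor genes Myd88 and Ticam2 carried 13, 17 and 11 and 11, 12 and 13 reads, too few to detect any but large changes. At 21 WT reads, for example, the other list needed at most 9 or at least 37 reads to lie beyond counting error before scaling for length. For the NF-kappaB genes 1 of 11 was called, as lower in mdx to WT, beside 7.58% of all shared regions. This was Rel (c-Rel), which carried 68, 46 and 31 reads and fell to 0.663 (0.446 to 0.978) in mdx. By reads per region, and also with lists scaled to their reads in peaks, that pair gave 0 lower and 1 higher. Of all 3475 regions at starts, reads per region called 122 lower and 163 higher in that pair, and the scaling 86 and 557. Nfkbia, the inhibitor IkappaB alpha, carried 62, 37 and 37 reads. Its ratio of 0.668 (0.432 to 1.02) in mdx was not called.

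Early response genes carried acetylation with no stimulus added. Jun carried 112, 80 and 95 reads, and Fos, its partner in AP-1, 51, 39 and 19. Neither was called per kb, although Fos was lower in mdxTLR4-/- BMDM than in both other lists by reads per region. Atf4, a factor of the integrated stress response, carried 69, 64 and 40 reads and rose in mdx to 2.07 (1.45 to 2.95) with a peak of 2200 bp against 4200 bp in WT. Junb carried 94, 69 and 49 and fell to 0.635 (0.440 to 0.907) in mdxTLR4-/- BMDM. Neither the Atf4 call nor the Junb call was made by reads per region. Of 15 early response genes, 2 were lower and 0 higher in mdxTLR4-/- to WT, beside 7.06% and 6.2% of all shared regions. With lists scaled to their reads in peaks, 0 of them were lower in that pair and 3 were higher. Under that scaling, 53 of all 3475 regions at starts were lower and 647 higher. Of 18 interferon-stimulated genes, 4 were called lower and 2 higher in mdx to WT, and 3 and 0 in mdxTLR4-/- to WT, beside 7.58% lower and 7.12% higher, and 7.06% and 6.2%, of all shared regions. By reads per region the first pair gave 0 lower and 1 higher, and with lists scaled to their reads in peaks the second gave 1 and 2. Of all 3475 regions at starts, these settings called 122 lower and 163 higher in the first pair, and 53 and 647 in the second. Trim25, a ubiquitin ligase of RIG-I signalling, carried 56, 36 and 13 reads and fell to 0.336 (0.168 to 0.621) of WT in mdxTLR4-/- BMDM, a call also made by reads per region.

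The calls in housekeeping lists are given beside those of all shared regions, which were 7.58% lower and 7.12% higher for mdx to WT, 7.06% and 6.2% for mdxTLR4-/- to WT, and 5.83% and 5.82% for mdxTLR4-/- to mdx. Of 41 ribosomal protein genes, 1 was called lower and 3 higher in mdx to WT, 2 and 3 in mdxTLR4-/- to WT, and 7 and 1 in mdxTLR4-/- to mdx, the last falling to 2 and 0 by reads per region. Rps9 carried 54, 33 and 31 reads, Rpl30, of the large subunit, 53, 42 and 31, and neither was called in any pair. Of 22 proteasome subunit genes, 2 were lower and 2 higher in mdx to WT. Of 23 lysosome genes, 1 was lower and 2 were higher in mdx to WT and 1 and 0 in mdxTLR4-/- to WT. Of 20 genes of complex I and ATP synthase, 3 were lower and 1 higher in mdx to WT, and 0 and 0 by reads per region. Cytosolic tRNA synthetase genes, with 9 of 19 in a shared start region, had 0 called in mdx to WT. Of the 14 cell cycle genes 1 was higher and 0 lower in that pair. The enzymes that write or erase H3K27 marks, with 10 of 19, had 0 called in mdx to WT and 3 lower in mdxTLR4-/- to WT. The latter became 1 lower by reads per region, and 0 lower and 1 higher with lists scaled to their reads in peaks. Of all 3475 regions at starts, that scaling called 53 lower and 647 higher in mdxTLR4-/- to WT. Reads per region called 122 and 163 in mdx to WT, 131 and 183 in mdxTLR4-/- to WT, and 123 and 143 in mdxTLR4-/- to mdx. Kdm6b, a demethylase of H3K27me3, carried 64, 42 and 45 reads and was not called.

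Of the study's marker genes of polarised macrophages, Tgfb1, Mrc1 and Arg1 had a shared start region. Tgfb1, a repair cytokine, carried 21, 24 and 14 reads, and Mrc1, the mannose receptor, 25, 16 and 9. The region of Arg1 (arginase) came within 2 kb of the start through its WT peak alone, 317 bp away with 18 reads, while the nearest peaks in mdx and mdxTLR4-/- BMDM were 2917 and 2717 bp away with 7 and 8 reads. Nos2, Il6, Il12a and Chil3 had no H3K27ac peak within 2 kb in any list, and Tnf had 12 and 9 reads in the first 2 lists and no peak in the third. The starts of Nos2 and Il12a lay beside or under H3K27me3, with peaks of 1717, 1779 and 1586 reads 1414 bp from Nos2 and of 191, 240 and 145 reads over Il12a.

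H3K27me3 had been measured in separate libraries, 2 for each genotype, and was not used to choose the regions. It touched 64 (1.84%, 1.44% to 2.34%), 54 (1.55%, 1.19% to 2.02%) and 45 (1.29%, 0.969% to 1.73%) shared start regions. The gene start itself lay under H3K27me3 for 0.931%, 0.525% and 0.454% of genes in these regions. Of 13359 genes with no H3K27ac peak within 2 kb of the start, 37.1%, 37.7% and 36.0% did so. Regions at starts that only 1 or 2 lists touched had H3K27me3 in 3.75%, 3.13% and 3.22%. Shared regions away from starts had it in 1.62%, 1.24% and 0.965%, so a low share was not particular to starts. Among shared start regions, 26 were touched in the WT list only, 17 in mdx only and 7 in mdxTLR4-/- only. A further 6 were touched in WT and mdx only, 7 in WT and mdxTLR4-/- only and 6 in mdx and mdxTLR4-/- only. The differences between these counts were not tested, since each genotype is 1 list, and the lists held 28024, 41558 and 36294 H3K27me3 peaks.

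In 25 shared start regions H3K27me3 was present in all 3 lists. Hjurp, a centromere histone chaperone gene whose region also holds the start of the ion channel gene Trpm8, carried 51, 36 and 21 H3K27ac reads. The H3K27me3 peaks touching this region held 2005, 1955 and 1413 reads, counted over whole peaks that can reach beyond it. At C1qc the H3K27me3 peaks held 101, 109 and 56 reads. H3K27me3 covered a median of 23.1% of the length of the touched regions in WT. Whether they lay on the same alleles or cells cannot be told apart from pooled cells. The median centred ratio of mdx to WT in these 25 regions was 0.766 (0.494 to 1.04), an interval that holds the 1.03 of regions with no H3K27me3.

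The starts in these regions were rich in CpG dinucleotides. In the window from 250 bp before to 50 bp after the GENCODE start, the median CpG count was 20, against 6 at starts without H3K27ac within 2 kb and 12 at all starts. A start was called CpG-rich at a GC content of at least 50% and an observed over expected CpG ratio of at least 0.6. This held for 67.0% of starts in shared start regions (65.5% to 68.4%), 29.1% of starts without H3K27ac (28.3% to 29.9%) and 42.5% of all starts. Density was not higher in CpG-rich regions, with a median of 9.12 WT reads per kb (8.85 to 9.38), against 10.2 (10.0 to 10.7) in the others.

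The 11 motifs were searched on both strands of the same window. They included the CCAAT box (spelled as in its name), the GC box (GGGCGG) and the core of ubiquitous ETS factors (CCGGAAG). Further motifs were the NRF1 motif (GCGCATG), the E box (CACGTG), the cyclic AMP response element or CRE (TGACGTCA) and the YY1 core (AAGATGG). The others were the TATA box (searched as TATAAA), the PU.1 core (GAGGAAG), the AP-1 site (TGANTCA) and the interferon response core. The interferon response core is a pair of GAAA blocks separated by any 2 bases. The ETS core was found at 19.4% of starts in shared start regions (18.2% to 20.6%), 5.94% of starts without H3K27ac (5.55% to 6.35%) and 11.0% of all starts. Since CpG-rich windows hold more motifs with CpG in them, the shares were also taken among CpG-rich starts alone, where the ETS core was at 24.2% (22.7% to 25.8%) against 13.0% (12.0% to 14.1%). Among CpG-rich starts the CRE was at 5.46% (4.68% to 6.36%) against 2.75% (2.28% to 3.31%), and the YY1 core at 8.27% (7.31% to 9.35%) against 5.01% (4.37% to 5.75%). The interferon response core was at 4.42% (3.84% to 5.08%) against 3.30% over all starts of each kind, and at 2.82% (2.27% to 3.50%) against 1.62% (1.27% to 2.07%) among CpG-rich ones. The AP-1 site was at 4.94% (4.33% to 5.64%) against 8.14% (7.69% to 8.61%), and among CpG-rich starts the intervals overlapped (2.97% to 4.36% against 2.75% to 3.87%). The GC box was at 59.3% against 34.6% over all starts of each kind, but at 73.5% (71.9% to 75.1%) against 77.0% (75.6% to 78.3%) among CpG-rich ones. The TATA box was at 7.31% against 15.7%, and at 4.85% against 4.94% among CpG-rich starts. The PU.1 core was at 14.5% (13.4% to 15.6%) against 13.0% (12.4% to 13.6%), with 13.3% of all starts. A match describes the letters in the window and not binding of a factor.

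**Figure D5:**
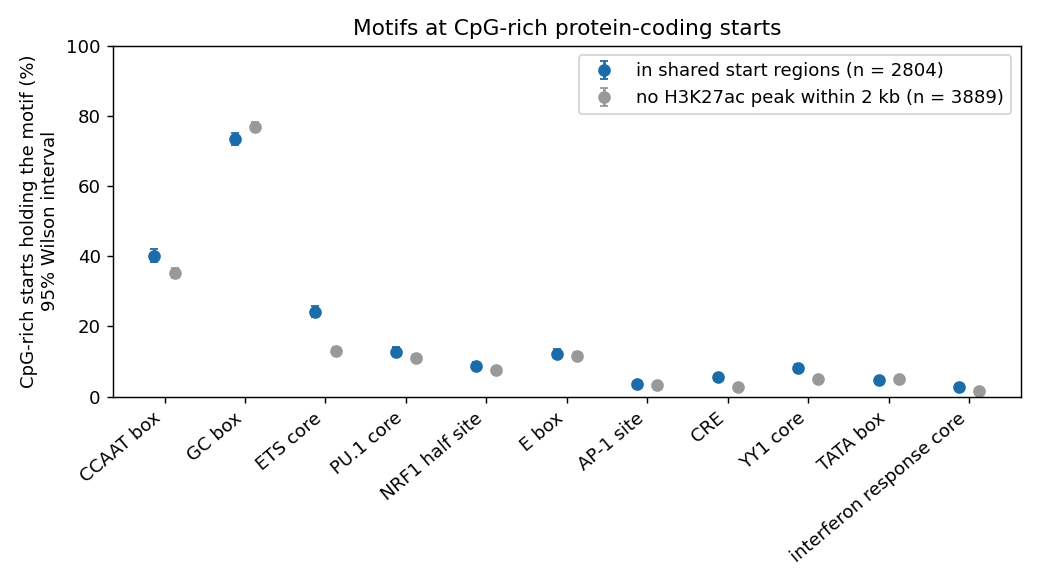
Share of starts whose 300 bp window holds each motif (percent, with Wilson 95% intervals as bars), for starts in shared start regions and starts without H3K27ac within 2 kb, in CpG-rich starts only. The ETS core stands at 24.2% against 13.0%, and the TATA box at 4.85% against 4.94%.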

How the data were processed

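Untreated BMDM of 3 genotypes were profiled by native ChIP-seq. Per the labels, the authors used CASAVA 1.8, cutadapt 1.15, Bowtie2 2.3.4 on mm10 and SICER 2.0, merged replicates, and deposited 6 peak lists holding, for every peak, a count of raw ChIP reads. Peak ends were read as inclusive, and the 0 columns of other samples left nothing out. Peaks were merged and joined to GENCODE vM21 starts with Python 3.11.15, pandas 2.3.3 and numpy 2.4.6. Counts were divided by peak length and ratios centred on the median of 6376 shared regions. A call needed a 1.5-fold change and an exact Clopper-Pearson 95% interval beyond 1 (scipy 1.17.1). This procedure was tested on simulated data. Sequences came from GRCm38.p6 by pysam 0.24.0 and, for the promoters printed, from RefSeq. Figures were drawn with matplotlib 3.10.9. With 1 list per genotype there are no replicates and no test between genotypes, and sequencing depth is not given in the sources used here, which leaves precision to counting error.

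The members and gene lists were chosen with earlier results of these data known. Genes named were the 5 regions with the most WT reads, the 5 longest, the 5 largest calls each way, the 10 strongest with H3K27me3 in all 3 lists, the members of 7 short gene lists and the 3 strongest of longer ones, of which the text gives a part, and some named items are not reported here. Regions called both per kb and per region were added after the data were seen. Alternatives covered merging, distance, thresholds, scaling and read minimum.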

Additional observations from a re-analysis of the deposited data

Results flagged for a closer look

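Chromosome X lies outside the rule, and its peaks entered no comparison. The same steps gave 119 regions touched by all 3 lists there, 80 of them within 2 kb of a protein-coding start, at 85 of 948 genes. This was singled out as signal in data the comparisons did not use.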

How the results depend on the processing

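Of 83 values recomputed, 38 stayed within the tolerance used, which was 1.5 times for a count and the 95% interval of the reported value otherwise, and the 45 others are given here. The scaling set the direction of the median ratios. For mdx to WT (1.03) the median was 0.880 unscaled, 1.25 scaled to 1000000 reads in peaks, 0.875 relative to the 1st percentile of density and 0.997 with at least 20 reads in each list. For mdxTLR4-/- to WT (1.02) it was 0.857, 1.38, 0.750 and 0.994. For mdxTLR4-/- to mdx (0.993) it was 0.960, 1.08 and 0.845 under the first 3. The higher and lower calls moved with the scaling too. Against 237 lower and 261 higher for mdx to WT, there were 417 and 149 unscaled and 86 and 557 scaled to reads in peaks. Against 224 and 216 for mdxTLR4-/- to WT, there were 455 and 104, and 53 and 647. A fold of 2 left 147 lower for mdx to WT. By reads per region 122 were lower and 163 higher for mdx to WT, 131 lower for mdxTLR4-/- to WT and 123 lower for mdxTLR4-/- to mdx. With at least 20 reads in each list, which 873 regions had, 98 and 90, 80 and 90, and 75 and 86 were called for the 3 pairs. Called per kb and per region, an alternative chosen after seeing the data, were 33 and 32, 34 and 46, and 30 and 40.

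Requiring peaks of each list to cover 50% of the region left 1994 regions. With any start of a protein-coding transcript, the start was under a peak in 90.01%, 88.8% and 86.4%. Requiring H3K27me3 over at least 50% of the region left 0.432%, 0.173% and 0.115%, and stricter H3K27me3 peaks left 1.18% in mdx. With 500 bp either side, 73.4% of starts were CpG-rich. The cause of these shifts was not tested beyond what each setting changes by its construction. No paired analysis was possible because the replicates of a genotype form 1 merged list, and no replicate could be left out.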

Other observations

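Starts of other transcripts also lay inside the shared start regions. Of 190 lncRNAs annotated as sharing a bidirectional promoter, 66 started inside one (34.7%), as did 224 of 2913 antisense transcripts (7.69%), 81 of 2054 miRNA genes (3.94%) and 114 of 5209 lincRNAs (2.19%). Processed pseudogenes, which are copies without their own promoter, had 15 of 8924 (0.168%). The peaks carry no strand, so reads of a lncRNA start and of the coding start beside it cannot be told apart.

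The share of protein-coding starts in shared start regions ran from 16.4% on chromosome 7 to 26.1% on chromosome 12. Across the 3475 regions, Spearman's rho of reads per kb was 0.514 between mdx and WT, 0.498 between mdxTLR4-/- and WT and 0.463 between mdxTLR4-/- and mdx, as a description over regions that share their merged boundaries and their small counts.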
